A study of Homo sapiens with 7 samples.

Results

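Among 4015 cells of a day 15 heart differentiation kept in DMSO, 451 (11.2%, exact 95% binomial interval 10.3 to 12.3%) carried almost no heart muscle transcripts and at least 3 transcripts in all of STMN2, SFRP5 and TCF21. They were chosen by their counts. In each cell the unique molecular identifiers (UMIs, each standing for 1 captured transcript) of the sarcomere genes TNNT2, ACTN2, MYH6 and TNNI1 were summed and divided by all its UMIs, and the 95th percentile of this share over the library, P, was 1.85%. A member had a share under 0.1 of P (0.185%), at least 3 UMIs of STMN2, SFRP5 and TCF21 together, and more of these than of FRZB, LUM and UPK3B together. Other non-muscle cells, under the same muscle limit with FRZB, LUM and UPK3B in the lead, numbered 825, and muscle cells, from 0.25 of P upwards, numbered 2122. A further 68 non-muscle cells met neither condition and 549 cells lay between the muscle limits. The series held 15305 cells in 3 libraries, all made from the human embryonic stem cell line H1, an established line, turned into heart cells. They were day 15 with the vehicle DMSO, day 15 with CHIR, a GSK3 inhibitor that switches on canonical Wnt signalling, and day 11, for which the labels give no treatment. The labels give neither the dose nor the time of CHIR. The cells were separated with collagenase and Accutase and sorted as live, DAPI-negative cells, and each group was 1 library. No difference below was therefore checked in replicates, and the intervals express counting error alone.

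TCF21 is a transcription factor of the proepicardium, the epicardium and the fibroblasts that come from it, and it also marks pharyngeal mesoderm. SFRP5 is a secreted inhibitor of Wnt ligands expressed in cells near the inflow of the early heart, and STMN2 is a regulator of microtubules best known from neurons. AQP3, a channel for water and glycerol, and C7, a protein of the terminal complement complex, were the other markers given for these cells. The proepicardium is a cluster of mesothelial cells at the venous pole of the heart whose cells spread over the heart as the epicardium, and some of them leave that layer as mesenchymal cells.

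The stretches of 250 bases before the start of 3 of these genes are shown because their transcripts set the cells apart. Transcripts of GATA factors, which bind GATA motifs, were also higher in members than in other non-muscle cells. Whether these factors act on the 3 genes was not tested. The stretches come from RefSeq (GRCh38.p14) and read 5′ to 3′ along the gene. Capitals mark the GATA words AGATAA and, with a final G in its place, AGATAG, with their forms TGATAA and, likewise, TGATAG, on either strand. They also mark the TATA word TATAAA on either strand, printed as TTTATA where it lies on the other one. TCF21 lies on the forward strand and its stretch is chr6:133888863-133889112. AQP3 lies on the reverse strand, at chr9:33447594-33447843, and C7 on the forward strand, at chr5:40909247-40909496.
TCF21: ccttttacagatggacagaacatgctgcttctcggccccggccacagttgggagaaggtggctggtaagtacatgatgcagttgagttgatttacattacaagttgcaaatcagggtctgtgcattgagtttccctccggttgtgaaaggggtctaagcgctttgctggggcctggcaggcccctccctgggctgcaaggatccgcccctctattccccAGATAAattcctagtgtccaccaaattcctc
AQP3: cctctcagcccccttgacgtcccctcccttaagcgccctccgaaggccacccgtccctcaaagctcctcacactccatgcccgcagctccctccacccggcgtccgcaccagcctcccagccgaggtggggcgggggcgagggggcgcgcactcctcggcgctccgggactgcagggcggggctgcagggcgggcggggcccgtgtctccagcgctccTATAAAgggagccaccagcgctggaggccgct
C7: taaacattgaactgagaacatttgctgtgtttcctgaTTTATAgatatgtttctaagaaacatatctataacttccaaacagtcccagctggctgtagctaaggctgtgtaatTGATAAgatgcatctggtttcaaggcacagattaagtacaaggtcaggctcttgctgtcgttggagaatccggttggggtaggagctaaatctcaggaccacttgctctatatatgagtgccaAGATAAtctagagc
TCF21 held AGATAA with its first base 31 bases before the start. C7 held TGATAA 137 bases and AGATAA 14 bases before it, and TATAAA on the other strand 213 bases before it. AQP3 held TATAAA 32 bases before its start and none of the 4 GATA words, and the stretch of SFRP5 held neither kind of word. Of 35116 promoter stretches of this length, 22.3% held at least 1 of the GATA words and 10.7% held TATAAA, so either match was common. A match of letters is not a bound site.

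Depth was similar between members and muscle cells. The median member held 14350 UMIs and 3522 genes, the median other non-muscle cell 20413 UMIs and 4050 genes, and the median muscle cell 13344.5 UMIs and 3453 genes. The share of UMIs from ribosomal protein genes was 27.1%, 28.8% and 22.5% in the same order, and the median mitochondrial share was 3.13%, 2.41% and 4.94%. The doublet caller Scrublet marked 5 members (1.11%), 10 other non-muscle cells (1.21%) and 162 muscle cells (7.63%). The library shared 4 cell barcodes with the CHIR library and 6 with day 11, and 1 and 2 of these were members.

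The rule genes did not mark 1 uniform kind of cell. The members held a median of 15 UMIs of STMN2, SFRP5 and TCF21 together, with quartiles of 9 and 23 and a highest value of 112. All 3 genes were seen in 153 members, SFRP5 with TCF21 in 157, STMN2 with TCF21 in 59 and STMN2 with SFRP5 in 16, while 18 held TCF21 alone, 32 SFRP5 alone and 16 STMN2 alone. STMN2 and TCF21 were thus seen together in 212 members (47.0%), and in 149 (33.0%) after each cell was thinned to 5000 UMIs. The lower limit of the rule cut few cells: 11 members held exactly 3 UMIs of the rule genes and 13 held 4, and 6 non-muscle cells just outside held 2 with fewer of the opposing genes. The muscle limit cut through a continuous range. Members in its upper part, from 0.05 to 0.1 of P, numbered 218, and 333 cells past the 3-gene sum lay just beyond it, between 0.1 and 0.25 of P.

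**Figure D1:**
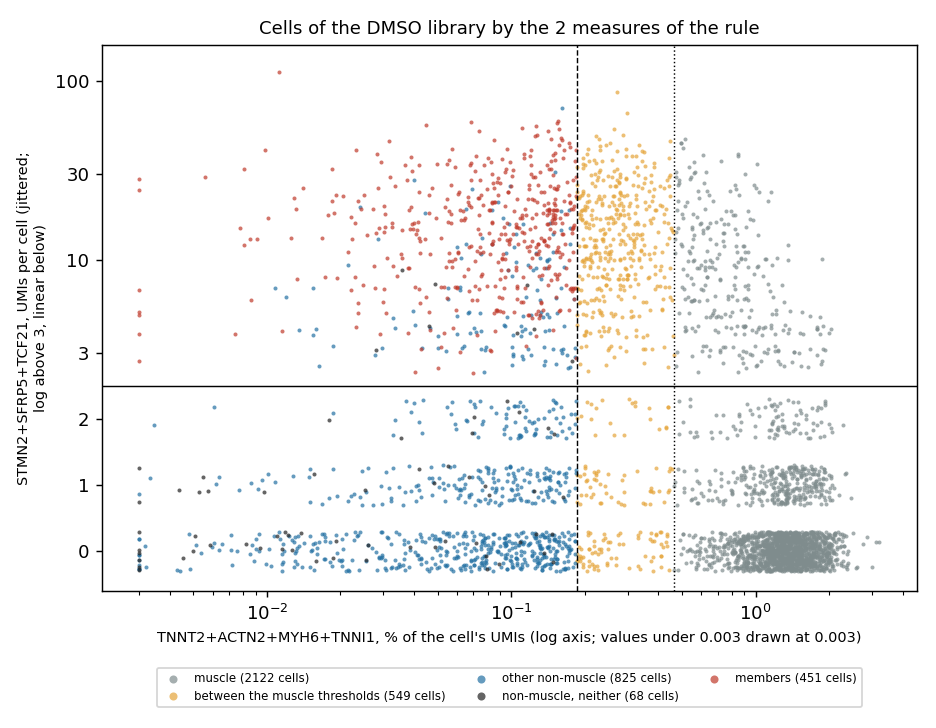
Each point is 1 cell of the DMSO library, placed by the percent of its UMIs in 4 sarcomere genes (log axis) and its UMIs of STMN2, SFRP5 and TCF21 together (jittered, log above 3). The dashed and dotted lines are 0.185% and 0.463% (0.1 and 0.25 of P) and the horizontal line is the minimum of 3 UMIs, and the 451 members run on without a gap into the 549 cells between the muscle limits.

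Across that range the genes did not move together. STMN2 was highest in the cells poorest in muscle transcripts, at 446 CPM (UMIs of a gene for every 1000000 UMIs of the cells summed) in the 233 members under 0.05 of P, 289 in the 218 members above it, and 202 and 210 in the 176 and 157 cells from 0.1 to 0.15 and from 0.15 to 0.25 of P that held the rule genes. SFRP5 ran the other way over the first 3 of these ranges, with 207, 441 and 557 CPM, and stood at 454 in the fourth. TCF21 stayed between 392 and 449 CPM in all 4. TBX18, a T-box factor of the sinus venosus and epicardium, was at 27.3 CPM in the lowest range and at 55.3, 57.7 and 51.0 in the others. MYL7, an atrial myosin light chain outside the rule, went from 513 to 1134, 1782 and 2805 CPM. From 0.25 of P upwards, 253 cells held the rule genes, and Scrublet marked 77 of these as doublets.

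In single genes the classes were far apart, as the rule makes them for 6 of the genes. STMN2 stood at 368 CPM in the members, 26.2 in other non-muscle cells and 20.9 in muscle. SFRP5 stood at 323, 24.4 and 57.0 CPM and TCF21 at 446, 28.5 and 38.6 CPM in the same order. The opposing genes FRZB, a Wnt inhibitor related to SFRP5, and LUM, a proteoglycan of connective tissue, were at 21.6 and 65.9 CPM in the members against 489 and 1305 CPM in other non-muscle cells. These 5 levels, and UPK3B at 14.3 against 97.8 CPM, describe the choice of the cells.

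AQP3 and C7 took no part in the rule. AQP3 stood at 137 CPM in members, 12.4 in other non-muscle cells and 9.74 in muscle, 11.0-fold (95% interval 9.52 to 12.8) above other non-muscle cells and 14.1-fold above muscle. C7 stood at 174, 13.5 and 36.3 CPM, 12.9-fold (11.2 to 14.9) and 4.79-fold above these classes. A UMI of AQP3 was seen in 45.9% of members and in 5.51% of muscle cells, which have a like depth, and a UMI of C7 in 45.5% and 21.6%. After thinning to 5000 UMIs the shares were 32.2% and 2.48% for AQP3 and 33.5% and 11.7% for C7. The median member held no UMI of either gene, and single cells reached 28 and 41 UMIs.

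**Figure D2:**
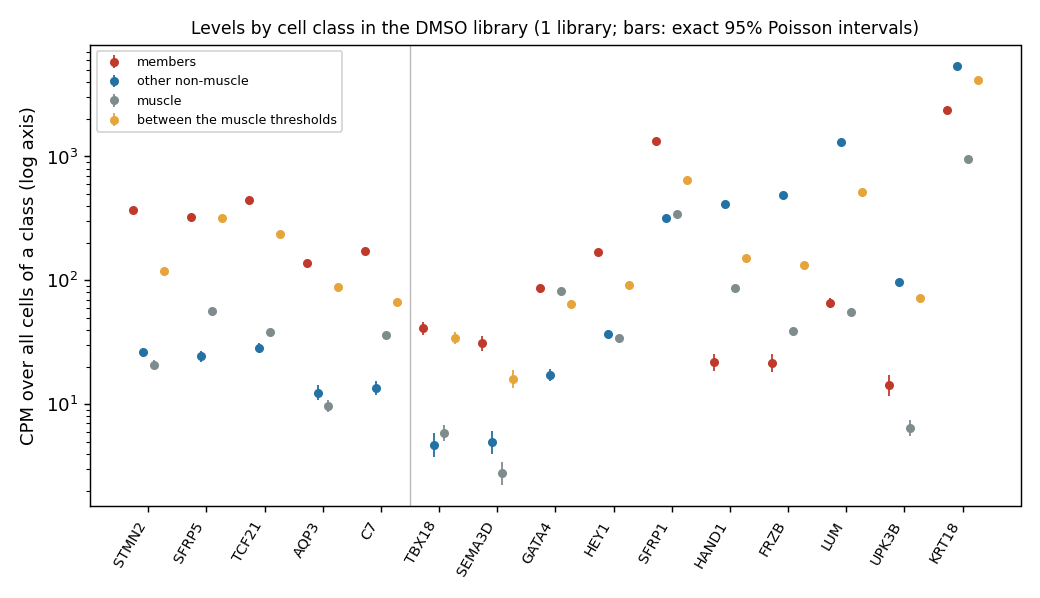
Levels of 15 genes in CPM (log axis) in 4 classes of the DMSO library, with exact 95% Poisson intervals of the summed counts; the markers of the cells are left of the line. The members (red) are above both other non-muscle cells (blue) and muscle (grey) for the 5 markers, TBX18, SEMA3D, HEY1 and SFRP1, and below other non-muscle cells for HAND1, FRZB, LUM, UPK3B and KRT18.

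Against other non-muscle cells, 1269 of 14216 genes with at least 20 UMIs over both classes (8.93%) were higher in the members by 2-fold or more and 892 (6.27%) lower, the 10 rule genes left out. The median log2 ratio was 0.12. With the classes' totals replaced by a median-of-ratios scaling, under which this median was -0.05, 976 were higher and 1136 lower. Because the rule chose both classes, these values describe them and test nothing. Of the 15 genes that led this list, SLC16A12, a carrier of creatine, was first, with 67.1 CPM in members and 3.15 in other non-muscle cells (21.3-fold, 16.1 to 28.6). GATM, which makes the precursor of creatine, was also among them, at 145 against 14.1 CPM. Others were C7, AQP3, PLN, TECRL, the transcription factor NFIA, PPP1R1A, the vesicle protein RAB3C, the Wnt inhibitor DKK1, the lysosomal lipase LIPA, PDLIM3, PHLDA1 and the homeobox gene PRRX2.

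Some of these leaders are known from heart muscle. PLN, which restrains the calcium pump of the sarcoplasmic reticulum, stood at 240 CPM in members, 19.2 in other non-muscle cells and 351 in muscle. TECRL, a gene of heart muscle calcium handling, stood at 358, 34.7 and 654 CPM, and PPP1R1A, an inhibitor of protein phosphatase 1, at 180, 20.4 and 593 CPM. Of 12 sarcomere genes measured outside the rule, 1 was at least 2-fold higher than in other non-muscle cells, TTN, the giant spring protein of the sarcomere, and none lower by that much (median 0.42 on the log2 scale). The 13 genes of that list summed to 6301 CPM in members, 5493 in other non-muscle cells and 51508 in muscle, while MYL7, an atrial myosin light chain, was at 822 CPM in members and 1135 in other non-muscle cells. The part of residual muscle transcripts in the levels of PLN, TECRL and PPP1R1A was not tested.

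The lowest genes against other non-muscle cells included genes of the lateral plate and the trunk. HAND1, a basic helix-loop-helix factor of lateral plate mesoderm, stood at 21.8 CPM in members and 415 in other non-muscle cells, 19.0-fold lower (16.2 to 22.5). RGCC, a regulator of the cell cycle, was at 0.99 against 61.1 CPM, the neuronal intermediate filament PRPH at 2.97 against 153 and the trunk homeobox gene HOXC8 at 3.40 against 81.3. The remaining 6 were NPNT, NNMT, NPY, PRSS35, MAB21L2 and DCN, the last at 70.5 against 584 CPM.

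**Figure D3:**
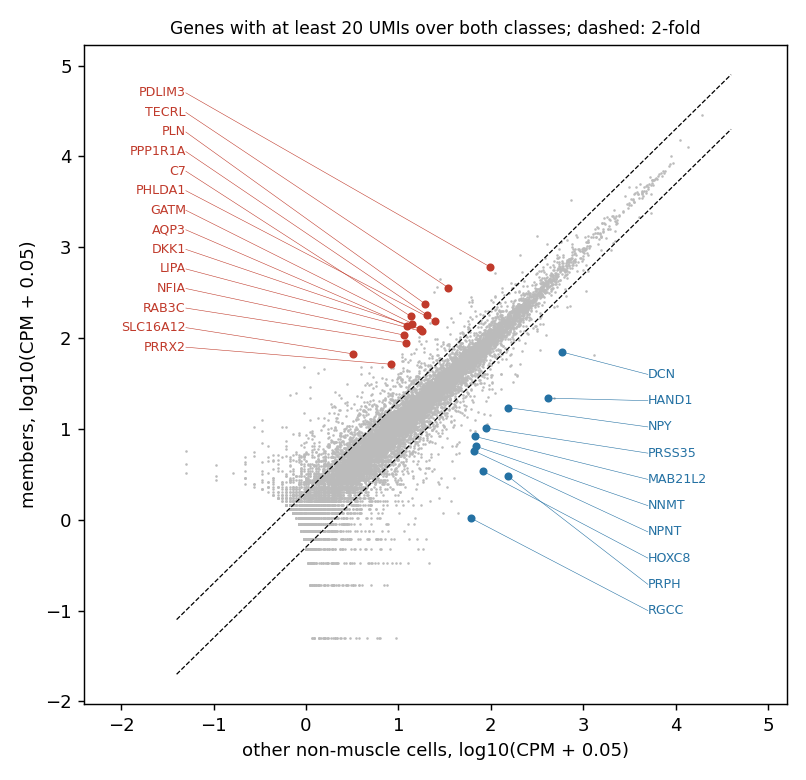
Each point is 1 gene with at least 20 UMIs over members and other non-muscle cells, the rule genes included, on log10 axes of CPM; dashed lines mark 2-fold. Leading genes (red) include PDLIM3 at 610 and SLC16A12 at 67.1 CPM in members, and the 10 lowest (blue) run from DCN at 70.5 to RGCC at 0.99 CPM.

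Genes of the proepicardium and epicardium split. Of 13 measured outside the rule, 5 were at least 2-fold higher in members and 4 lower (median log2 ratio 0.29). TBX18 stood at 41.2 against 4.72 CPM (8.71-fold, 6.81 to 11.2) and SEMA3D, a guidance protein of the proepicardium, at 31.0 against 4.95 CPM. CALB2, ITLN1 and ALDH1A2 were higher at lower levels, the last at 5.52 against 1.24 CPM. WT1, a defining factor of the epicardium, was at 30.6 against 25.03 CPM, 1.22-fold (1.03 to 1.44). KRT19, PODXL, BNC2 and C3 were lower, KRT19 at 329 against 1070 CPM. The mesothelial marker MSLN had 0 UMIs in the members, which allows up to 0.424 CPM. MSLN was also too rare in other non-muscle cells to reach the UMI minimum over both classes. Its absence therefore does not set the members apart from these cells.

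Genes of the sinus venosus and posterior heart field were mostly on the higher side. Of 10 measured, 5 were at least 2-fold higher (TBX18, TBX5, SHOX2, NR2F1 and HCN4) and 2 lower (ISL1 and FOXF1; median log2 ratio 1.46). TBX5, the T-box factor of the inflow part of the heart, stood at 21.9 against 2.36 CPM (9.28-fold, 6.56 to 13.4), and HCN4, a pacemaker channel, at 10.8 against 1.46 CPM. SHOX2 rested on 34 against 3 UMIs, a ratio of 28.5 with an interval of 8.96 to 145. Both TBX5 and HCN4 were higher still in muscle, at 48.8 and 46.7 CPM.

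The lateral plate and juxtacardiac genes formed the opposite pattern. Of 10 measured, 7 were lower in members by 2-fold or more and 3 higher (median log2 ratio -2.62). MSX1 stood at 11.3 against 90.4 CPM, MSX2 at 14.6 against 83.5 and the ligand BMP4 at 27.7 against 102 CPM, alongside HAND1, MAB21L2, FOXF1 and HOXB1. The 3 on the higher side were GATA6, PRRX1 and PDGFRA. Of 11 HOX genes, 0 were higher by 2-fold or more and 5 lower (median -0.95), among them HOXB5 at 7.36 against 22.1 CPM.

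Cardiac transcription factors other than HAND1 leaned to the members over other non-muscle cells, but not over muscle. Of 10 measured, 6 were at least 2-fold higher (TBX5, TBX20, GATA4, GATA5, GATA6 and MEF2C) and 1, HAND1, lower, with a median of 1.19. GATA4 stood at 86.3 CPM in members, 17.4 in other non-muscle cells and 81.6 in muscle. GATA5 stood at 112, 50.5 and 48.4 CPM and GATA6 at 82.3, 35.0 and 71.6 CPM, so that the 3 GATA factors were at least as high in members as in muscle. Against muscle the list went the other way: 1 of 10, GATA5, was at least 2-fold higher in members and 6 lower (median -1.23). The 6 were NKX2-5, TBX5, TBX20, MEF2A, MEF2C and HAND1. NKX2-5, the factor of committed heart muscle, was at 21.5 CPM in members, 27.7 in other non-muscle cells and 664 in muscle.

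Of 4 secreted Wnt inhibitors measured outside the rule, 3 were at least 2-fold higher than in other non-muscle cells and none lower, with a median of 1.73. SFRP1 stood at 1343 CPM in members against 318 (4.23-fold, 4.09 to 4.37) and 344 in muscle. It was seen in 96.9% of members, 72.2% of other non-muscle cells and 87.7% of muscle cells. DKK1 stood at 127 against 16.9 CPM and DKK3 at 15.3 against 5.91 CPM. Target genes of Wnt signalling were near the floor in the members, with 9 genes summing to 28.0 CPM, 22.4 in other non-muscle cells and 40.8 in muscle. Of 7 measured, 1 was at least 2-fold higher (NKD1, 11 UMIs) and 2 lower (AXIN2 and NOTUM, 5 and 4 UMIs).

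Retinoic acid genes also leaned to the members, with 6 of 10 at least 2-fold higher, 2 lower and a median of 1.41. CRABP2, which carries retinoic acid to its receptor, stood at 537 against 218 CPM. The synthetic enzyme ALDH1A1 stood at 16.1 against 3.54 CPM and the receptor RARB at 7.07 against 1.35 CPM. CRABP1 was lower, at 10.8 against 30.9 CPM, and CYP26A1 rested on 3 UMIs in members.

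Of 9 Notch genes measured, 3 of the HEY family were at least 2-fold higher and 1, HES1, lower (median 0.82). HEY1, a transcriptional repressor downstream of Notch, stood at 168 CPM in members, 37.1 in other non-muscle cells and 34.2 in muscle, while HES1 stood at 37.5 against 100.01 CPM in other non-muscle cells. Among 10 BMP ligands and antagonists, BMP2 and BMP5 were higher, BMP2 at 48.1 against 5.06 CPM (9.5-fold, 7.51 to 12.1), and BMP4, NOG and FST were among the lower ones. Among 14 growth factors and chemokines, VEGFA, HGF, CXCL12, PTN and TGFB2 were at least 2-fold higher and IGF1 lower (median 0.33), and the heparin-binding growth factor PTN reached 1084 against 402 CPM.

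Epithelial genes were lower in the members than in other non-muscle cells. Of 14 genes of epithelia and cell junctions, 0 were at least 2-fold higher and 9 lower (median log2 ratio -1.46). The list summed to 3440 CPM in members and 7795 in other non-muscle cells. Among the sub-clusters of members described below it ran from 1155 CPM in sub-cluster 2 to 8319 CPM in sub-cluster 4. The keratin KRT18 stood at 2367 against 5379 CPM and the junction protein CLDN4 at 2.83 against 39.6 CPM (14.0-fold, 8.99 to 23.1). Of 9 genes of mesenchymal transition, TWIST1, ZEB2 and PRRX1 were at least 2-fold higher and none lower (median 0.78), TWIST1 at 86.3 against 34.3 CPM. Fibroblast genes did not separate the classes one way: COL6A3 and PDGFRA were higher, DCN and POSTN lower, and the main collagen COL1A1 stood at 782 against 611 CPM (10 measured, median 0.23).

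Of 8 neuronal genes measured outside the rule, DCX, GAP43 and MAP2 were at least 2-fold higher and PRPH lower, with a median of 0.71. PRPH, an intermediate filament protein of peripheral neurons, stood at 2.97 CPM in members against 153 in other non-muscle cells, 51.5-fold lower (33.6 to 83.3). GAP43, a growth cone protein, stood at 86.6 against 35.5 CPM, whereas DCX and MAP2 were at 2.55 and 4.1 CPM in the members. TUBB3, a neuronal tubulin, was at 114 against 87.1 CPM and STMN1, the stathmin of dividing cells, at 741 against 994 CPM. The neural crest genes listed in the table summed to 5.23 CPM, and the neural progenitor factor SOX2 and the crest factor TFAP2B had 0 UMIs.

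The endothelial list of 9 genes summed to 190 CPM in members, 174 in other non-muscle cells and 97.5 in muscle, and EGFL7 gave 181 of the 190 CPM. The defining endothelial genes PECAM1 and CDH5 had 0 UMIs in the members, each allowing up to 0.424 CPM. Of 6 endothelial genes measured, 3 were at least 2-fold lower than in other non-muscle cells and 0 higher (median -0.90). Against muscle, PLVAP, TEK, EGFL7 and NPR3 were higher and 2 lower (median 1.51), with PLVAP, TEK and NPR3 at 10, 16 and 22 UMIs in members. The 4 blood genes listed summed to 3.68 CPM. Of 16 cell cycle genes, 6 were at least 2-fold lower than in other non-muscle cells and 0 higher (median -0.80). The endoderm list summed to 139 CPM in members and 140 in other non-muscle cells, but 4 cells carried much of it in the members: without them it summed to 29.5 CPM, with APOA1 at 25.6 and TTR at 2.72 CPM.

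SERPINA1, a secreted protease inhibitor made by liver and endoderm cells, was the gene highest against muscle, at 360 against 2.01 CPM. It rested on 4 members with 1135, 1020, 261 and 118 UMIs. These 4 cells held 3 to 5 UMIs of SFRP5, none of STMN2 or TCF21, and UMIs of TTR, APOA2 and AFP, and Scrublet marked none of them. Without them the other 447 members had 11 SERPINA1 UMIs (1.57 CPM), AQP3 at 138 and TCF21 at 451 CPM. The 68 non-muscle cells outside both classes held 9 cells with at least 10 SERPINA1 UMIs.

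Against muscle, 1628 of 15652 genes (10.4%) were higher in members by 2-fold or more and 3045 (19.5%) lower. The median log2 ratio was -0.11. After SERPINA1 the highest were BGN, a matrix proteoglycan, at 92.4 against 4.95 CPM (18.7-fold), SULF1, which trims heparan sulphate, at 55.7 against 3.58 CPM, AQP3, the complement protease CFI, the collagen COL6A3, TM4SF1, RAB3C, IGFBP3 and LIPA. All 13 sarcomere genes outside the rule were lower by 2-fold or more (median -5.44), a direction the rule fixes. MYL4, an atrial and embryonic myosin light chain, was 43.4-fold higher in muscle (39.8 to 47.4).

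Fibroblast and growth factor genes were mostly higher in members than in muscle, and basement membrane and glycolysis genes were lower or within 2-fold. Of 10 fibroblast genes, 8 were at least 2-fold higher than in muscle and 0 lower (median 1.95), and of 14 growth factors 10 were higher and 1 lower (median 1.36), among them IGF2 at 302 against 28.7 CPM. Of 12 proepicardial and epicardial genes, 7 were higher, WT1 and TBX18 included, and 0 lower (median 1.72). Of 11 glycolysis genes, 10 were at least 2-fold lower and 0 higher (median -1.67), with the glucose carrier SLC2A1 at 6.79 against 73.8 CPM and LDHA at 712 against 2086 CPM. Of 11 basement membrane genes, LAMA1, LAMA4, NID2, HSPG2 and AGRN were at least 2-fold lower and 0 higher (median -0.59), and the list summed to 299.6 CPM in members against 590 in muscle.

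Some genes were higher in the members than in both other classes. By the smaller of both ratios the first 15 included AQP3, RAB3C, LIPA, GEM, PHLDA1, PRRX2, CFI, GNG8, SULF1, PDLIM3, C7, BGN, MMP11 and HEY1. RAB3C stood at 89.3 CPM in members, 11.9 in other non-muscle cells and 7.26 in muscle, and LIPA at 118, 17.8 and 10.6 CPM. PDLIM3, an actin-associated protein, had the highest level of these at 610 CPM, against 97.4 and 119. GEM, a small GTPase that restrains calcium channels, stood at 102, 16.7 and 9.30 CPM. PDLIM3 was seen in 92.7% of members, RAB3C in 54.3% and LIPA in 59.6%. Cells past the 3-gene sum just beyond the muscle limit were outside these classes, and AQP3 was not particular to the members beside them. From 0.1 to 0.15 and from 0.15 to 0.25 of P, AQP3 stood at 133 and 135 CPM and C7 at 71.8 and 126 CPM. In the members under and above 0.05 of P, AQP3 stood at 110 and 164 CPM and C7 at 167 and 181 CPM.

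The members fell into 7 sub-clusters by Leiden clustering at resolution 0.6, and the genes below describe them without a test. Because a few cells can set a summed ratio, leading genes are given among those seen in at least 25% of the cells of a sub-cluster. Sub-cluster 1 (114 cells) was led by AQP3, SCN7A, TCF21, LIPA, PPP1R1A, CMYA5, SLC2A3 and GATM, with TCF21 at 948 CPM against 296 in the other members. By summed ratio alone its first genes were SERPINA1, APOA2, FGB, AFP and TTR, and SERPINA1 was seen in 8 of its 114 cells. Sub-cluster 2 (83 cells) was led by MGP, ANGPT1, DHRS9, LRRC17, the calcium pump regulator SLN, SEMA3D and C7, and held C7 at 445, PLN at 589 and SFRP1 at 2612 CPM.

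Sub-clusters 3 and 5 held most STMN2. STMN2 was at 815 CPM in sub-cluster 3 (81 cells, 72 with a UMI) and 798 CPM in sub-cluster 5 (57 cells, 52 with a UMI). IGFBP3, which binds insulin-like growth factors, led with TGFBI, NTS, ROBO2 and BCL2A1 in sub-cluster 3, at 1267 CPM. DHCR7, a sterol enzyme, led with ENG, HAPLN1, CNTNAP2 and LMO2 in sub-cluster 5, at 121 CPM.

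Sub-cluster 4 (66 cells) was the opposite end. STMN2 was seen in 3 of its cells, at 4.24 CPM, and SFRP5 in all 66, at 603 CPM. Its leading genes were PODXL, RBP7, LRP2, ALKAL2, SLC7A4, ACKR3, UPK3B and PLAC9. KRT18 reached 6201 CPM and TBX18 97.6 CPM there, WT1 73.0 CPM and ALDH1A2 16.1 CPM, each the highest of the 7 sub-clusters. VIM, an intermediate filament of mesenchymal cells, was lowest there at 2646 CPM.

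Sub-cluster 6 (35 cells) was led by genes of mitosis, TOP2A seen in 32 of its cells, with a cell cycle list of 2701 CPM and a median of 19820 UMIs. Sub-cluster 7 (15 cells) was led by EPPK1, NPPB, IL32, PHLDA2, ANKRD1 and EDN1, and its smooth muscle list summed to 12264 CPM, with TAGLN at 9044 CPM. At resolutions 0.3 and 1.0 there were 5 and 10 sub-clusters. At 0.3, 110 of the 114 cells of sub-cluster 1 and all 83 of sub-cluster 2 shared 1 sub-cluster, while sub-cluster 4 kept all 66 cells together and sub-cluster 6 all 35. Of the 81 cells of sub-cluster 3, 43 stayed together at 0.3, in a sub-cluster of 96 that also held 53 of the 57 cells of sub-cluster 5. At 1.0, 42 of the 81 cells of sub-cluster 3, 66 of the 114 of sub-cluster 1 and 58 of the 83 of sub-cluster 2 stayed together.

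**Figure D4:**
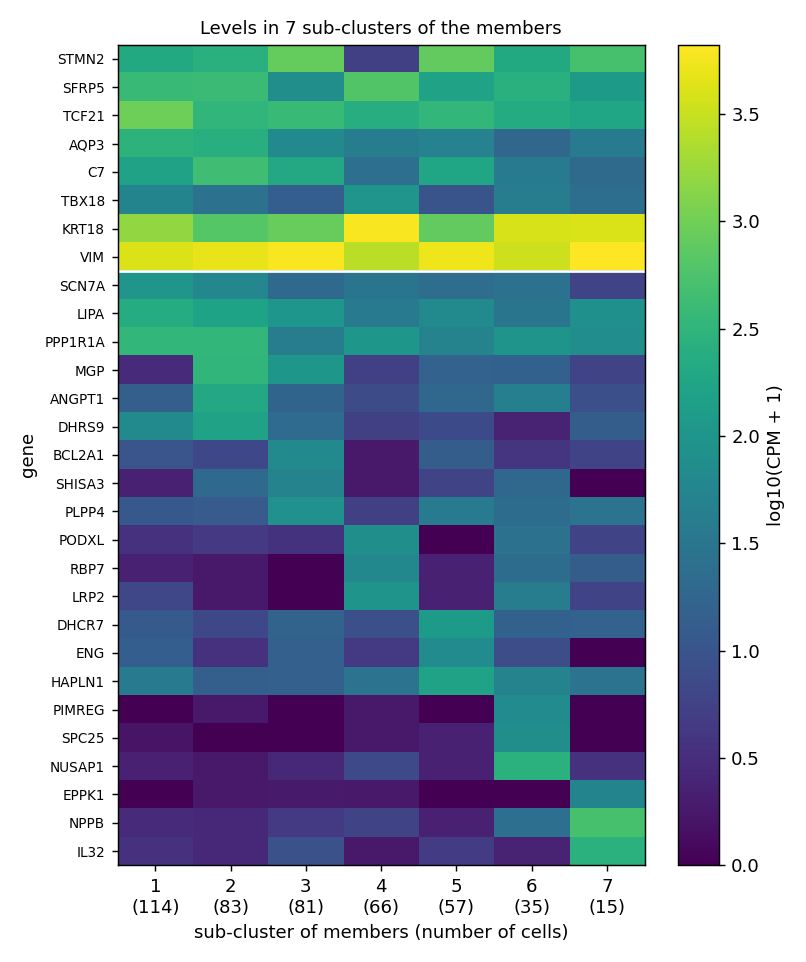
Levels as log10(CPM + 1) of 8 marker genes (above the white line) and of genes seen in at least 25% of the cells of the sub-cluster they lead (below it) in the 7 sub-clusters of the members. STMN2 is darkest and KRT18 brightest in sub-cluster 4, TCF21 and AQP3 are brightest in sub-cluster 1, and C7 is brightest in sub-cluster 2.

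A split of the members by a single UMI of STMN2 gave a like picture. The 244 members with a STMN2 UMI and the 207 without had median depths of 13994.5 and 14945 UMIs. TCF21 was at 479 and 411 CPM and AQP3 at 150 and 123 CPM in the same order, close in both. C7 was at 251 and 90.5, RAB3C at 132 and 42.9, TWIST1 at 116 and 54.4 and VIM at 5480 and 3577 CPM, all higher with STMN2.

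SFRP5 was at 192 CPM with STMN2 and 464 without, TBX18 at 24.5 and 59.1, WT1 at 19.9 and 42.0, PODXL at 3.0 and 33.5 and KRT18 at 1030 and 3809 CPM, all lower with STMN2. The SERPINA1-rich cells were all among the 207, and without them KRT18 stood at 3813 and SFRP5 at 470 CPM there. STMN2 and SFRP5 were both used to choose the members, so their levels here are not independent of the rule.

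The same rule, with P taken in each library, found 210 of 5683 cells at day 11 (3.7%, 3.22 to 4.22) and 355 of 5607 with CHIR (6.33%, 5.71 to 7.0). Of the non-muscle cells of each library, members were 33.6% with DMSO, 15.7% at day 11 and 9.55% with CHIR. The cells elsewhere held fewer rule UMIs, with a median of 6 at day 11 and 4 with CHIR against 15, and 49 and 124 of them held exactly 3. How the contrast with other non-muscle cells looked in those libraries does not depend on the DMSO counts that ranked the genes. The same rule cut both classes in each library, however, so genes that go with the rule genes differ by that choice. The contrast there is a description and no independent test.

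At day 11, 14 of the 15 leading genes were at least 2-fold higher in members than in other non-muscle cells of that library, where 6.29% of 15190 genes were higher and 5.72% lower. NFIA stood at 9.20-fold (7.47 to 11.4), SLC16A12 at 8.50-fold, GATM at 8.29-fold and AQP3 at 7.82-fold (5.49 to 11.3). The exception was PDLIM3, at 1.44-fold (1.32 to 1.57). With CHIR, 8 of the 15 were at least 2-fold higher, where 3.93% of 14962 genes were higher and 4.31% lower, and the median ratio was 2.26. PPP1R1A stood 4.63-fold and TECRL 3.82-fold higher there, but DKK1, LIPA and PHLDA1 stood at 0.91, 0.92 and 1.01 times the level of other non-muscle cells. AQP3 and C7 rested on 8 and 5 UMIs with CHIR and their ratios had intervals of 2.21 to 20.7 and 0.45 to 4.16.

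TBX18 was higher in the cells of the rule in all 3 libraries, 8.71-fold with DMSO, 10.8-fold at day 11 (143 against 13.3 CPM) and 6.28-fold with CHIR (10.6 against 1.69 CPM). HAND1 was lower in all 3, with ratios of 0.052, 0.175 and 0.334. WT1 was 1.22 times as high with DMSO, 2.71 at day 11 and 3.45 with CHIR.

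**Figure D5:**
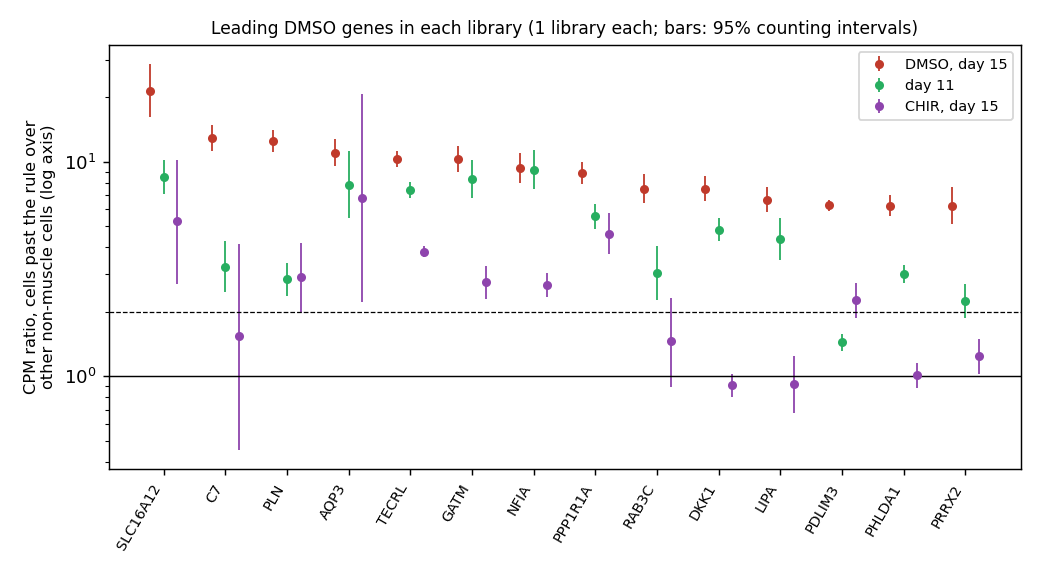
Ratio of the CPM in cells past the rule to that in other non-muscle cells (log axis) for 14 of the 15 genes that led in the DMSO library, in each of the 3 libraries, with 95% counting intervals; the dashed line is 2-fold. All 14 are above 2-fold with DMSO, where they were chosen, 13 at day 11 and 8 with CHIR.

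Between the libraries the cells of the rule differed widely. Whether they are the same kind of cell in each library was not tested, and this comparison was run at the main limits of the rule only. With CHIR, 2037 of 12947 genes (15.7%) were at least 2-fold higher than in the DMSO members and 1803 (13.9%) lower, with a median log2 ratio of 0.07, or 0.30 once mitochondrial and ribosomal protein genes were left out of the totals. With those genes out of the totals, 2940 were higher and 1335 lower, whereas under a median-of-ratios scaling (median -0.04) 1702 were higher and 2110 lower, so the balance of higher and lower genes turned with the scaling. Gene length also moved with the ratio. In 3 groups of gene length, the median log2 ratio was -0.21 among the shortest genes, 0.15 among the middle ones and 0.34 among the longest. The part of this in any CHIR result was not tested. AQP3 stood at 1.63 CPM with CHIR against 137 with DMSO, 83.9-fold lower (42.4 to 195), and C7 at 1.02 against 174 CPM, 170-fold lower (72.9 to 526). Other non-muscle cells also held less of both with CHIR, so these falls were not particular to the members. There AQP3 stood at 0.241 CPM (8 UMIs) against 12.4 with DMSO, and C7 at 0.664 CPM (22 UMIs) against 13.5. TCF21, a gene of the rule, stood at 238 CPM and STMN2 at 55.7 CPM with CHIR.

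All 8 measured Wnt target genes were at least 2-fold higher with CHIR (median 4.35), among them NKD1 at 194 against 1.56 CPM and AXIN2 at 52.7 against 0.71 CPM. Of 8 lateral plate genes 6 were higher and none lower (median 2.45), MSX1 at 273 against 11.3 CPM and HAND1 at 157 against 21.8 CPM. Of 9 retinoic acid genes 5 were lower and none higher (median -1.02), DHRS3, a retinaldehyde reductase, at 3.47 against 23.3 CPM. Of 15 cell cycle genes 8 were higher and none lower (median 1.18). Among the 15 genes leading in DMSO, 11 were at least 2-fold lower with CHIR and 0 higher, PLN at 8.57 against 240 CPM, whereas TECRL was at 357 against 358 CPM. These 15 were chosen for being high in the DMSO members, which favours lower values elsewhere, so this count tests nothing. In other non-muscle cells PLN stood at 2.96 CPM with CHIR against 19.2 with DMSO, and TECRL at 93.5 against 34.7 CPM.

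At day 11, 4570 of 13183 genes (34.7%) were at least 2-fold higher than in the DMSO members and 523 (3.97%) lower. The median log2 ratio was 0.52, and it was 0.01 among the shortest genes, taken in 3 groups of gene length, and 1.35 among the longest, so a gene's length moved with its ratio and the part of this in any day 11 result was not tested. AQP3 was at 29.7 CPM and C7 at 31.3 CPM at day 11, 4.62-fold (3.73 to 5.78) and 5.56-fold (4.53 to 6.90) lower than with DMSO. TBX18 was at 143 CPM and GATA4 at 482 CPM, 3.47-fold and 5.59-fold higher than with DMSO. In other non-muscle cells, AQP3 and C7 were also lower at day 11, at 3.8 and 9.65 CPM against 12.4 and 13.5 with DMSO. TBX18 and GATA4 were also higher in these cells at day 11, at 13.3 and 143 CPM against 4.72 and 17.4. Of 9 retinoic acid genes, 6 were lower and 0 higher (median -1.24), and of 10 cardiac factors 5 were higher and 0 lower (median 1.03). Day and treatment are each 1 library, so a difference between libraries and one between conditions cannot be told apart.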

How the data were processed

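Each library was deposited by the authors as a table of raw UMI counts per gene and cell, made with Cell Ranger 6.1.1 on GRCh38, per the submitters' processing notes. The sources used here do not say whether intron reads were counted. Cells held 3612 to 51016 UMIs with DMSO, 2630 to 41270 at day 11 and 3697 to 41870 with CHIR, which sets the counting precision. The members and gene lists were chosen with earlier results of these data known.

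All deposited cells were used, doublets included. They held 1804 to 5990 genes with DMSO, 1811 to 5999 at day 11 and 1802 to 5994 with CHIR. These ranges end at nearly the same numbers in all 3 libraries, so shares of cells are shares of cells within them. UMIs were summed per gene and class, divided by the class total (CPM) and compared as ratios with exact conditional binomial (Clopper-Pearson) 95% intervals, which cover counting error only. Log2 ratios had 0.5 added to each count. A count of 0 was given a limit of 3 UMIs. With 1 library per group no test was run. Gene counts took genes with at least 20 UMIs over both classes.

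Named genes were the rule genes and markers, list members, and the 15 highest and 10 lowest against other non-muscle cells, the 10 highest against muscle, the 15 highest against both and 8 per sub-cluster, each of at least 50 CPM and outside mitochondrial and ribosomal protein genes. Genes of sub-clusters seen in at least 25% of cells were added after seeing the data. Members were sub-clustered on 1500 variable genes, 20 principal components and 15 neighbours (scanpy 1.11.5, Python 3.11.15, scipy 1.17.1, seed 1). Scrublet ran in scanpy at an expected rate of 0.06. Intervals were tested on simulated Poisson counts of whole classes, the kind of count they assume. Spread between cells was left out of that simulation, so it cannot show how the intervals hold under such spread. Alternatives changed the rule's limits, the scaling, the UMI minimum, the depth and the cells kept. The H3K27ac peak list was not used, and a few genes that met these rules are not reported here.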

Additional observations from a re-analysis of the deposited data

How the results depend on the processing

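The number of members followed the muscle limit. At 0.05 of P there were 233 members (5.80% of cells) with DMSO and 83 at day 11, and at 0.2 of P 732 (18.2%) and 349. A minimum of 2 UMIs gave 555 cells with CHIR, and a minimum of 6 UMIs gave 104 with CHIR, 108 at day 11 and a DMSO share of 10.04%. Thinned to 5000 UMIs per cell, the share was 9.12%. Counts of genes past 2-fold followed the UMI minimum. With no minimum, 3655 were higher and 1842 lower than in other non-muscle cells, 3437 higher than in muscle, and 4218 higher and 4147 lower with CHIR. With at least 100 UMIs these were 547 and 466 against other non-muscle cells, 966 and 2025 against muscle, and 984 and 1014 with CHIR. These settings test more or fewer genes by construction. Scaling by the median of ratios, other totals and per-cell means kept these counts within 1.5 times in the 3 comparisons, as did leaving out Scrublet doublets in both comparisons within the DMSO library. That setting was not run for CHIR. Of 1014 values of 39 named genes under alternatives, 1007 kept their direction. Among these, 850 stayed the same in size by the limits used and 157 moved. Many of these genes were chosen for large ratios, which favours keeping the direction. SERPINA1 turned to log2 -6.47 against other non-muscle cells and -0.44 against muscle at a minimum of 6 UMIs. It turned to -0.33 and -0.30 without cells of at least 10 SERPINA1 UMIs, and to -0.18 and -0.27 without cells with a TTR, APOA2 or AFP UMI, both chosen after seeing the data. PRPH turned to 1.02 against muscle without Scrublet doublets, and the cause was not tested. The sub-cluster highest in TOP2A held 35 or 36 cells at 3 resolutions. No paired analysis was possible because each group was 1 library. Depth limits the lowest levels: RGCC at 0.99 CPM rests on 7 UMIs.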

Other observations

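The 68 non-muscle cells outside both classes held other lineages. Their endoderm list summed to 3359 CPM and their endothelial list to 1110 CPM, against 139 and 190 CPM in the members. SERPINA1 stood at 3410 CPM, CDH5 at 33.2 CPM and PECAM1 at 24.9 CPM in these cells.

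Immediate early and dissociation genes were close in their list sum, at 783 CPM in members, 812 in other non-muscle cells and 704 in muscle. Against other non-muscle cells 0 of 10 were at least 2-fold higher in the members and 2, FOS and ATF3, lower (median -0.13). Against muscle 0 of 10 were higher by that much and 2, FOSB and EGR1, lower (median -0.22). Basement membrane genes summed to 300 CPM in members, 289 in other non-muscle cells and 590 in muscle, and NID1 alone of 11 was at least 2-fold higher than in other non-muscle cells.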
